A study of Mus musculus with 11 samples.

Results

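The immediate early genes *Fos*, *Egr1*, *Egr2* and *Egr3*, the MAP kinase phosphatase genes *Dusp4* and *Dusp6*, and *Myc* were followed in 11 mouse lungs measured by nCounter, in which fluorescent probes bound to single RNA molecules are counted without amplification. These 7 of the 770 genes on the panel were chosen by name with earlier results of the same lungs known, for the way they vary between lungs. Their levels, spread, group differences and correlations are therefore given as a description, with no test. Of the 7 genes, 5 averaged 20 or more normalized counts per lung and were among the 657 genes tested, while *Egr2* and *Egr3* did not reach this level.

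The lungs came from BALB/c female mice that were 8 weeks old when 4T1-luc2 cells, a mouse mammary carcinoma line that expresses luciferase and metastasizes to the lung, were injected into the mammary fat pad. All mice had the primary tumor resected on day 13 and were given intraperitoneal antibody at 1 mg/kg between day 7 and day 28, with 3 injections weekly for 3 weeks. The antibody was αChemR23, an agonist monoclonal antibody against the receptor ChemR23 (antiChemR23 in the labels), for 6 mice (9, 10, 13, 14, 15 and 16), and the control antibody hIgG1 for 5 mice (3, 4, 6, 7 and 8). The groups follow the sample labels, and the series' design text divides the same total of 11 mice differently. Each lung is a separate mouse, was digested into single cells before RNA extraction, and was taken at euthanasia. The sources used here do not give the collection day, metastatic load or digestion time of each lung. A difference between the groups in these cannot be told apart from one between the antibodies.

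Immediate early genes are transcribed within minutes of a stimulus, without new protein synthesis, from promoters that carry already bound factors such as SRF, the Elk factors and CREB. Growth factors, stress and antigen receptors reach them largely through the ERK MAP kinase pathway, and their transcripts are short-lived. In many tissues they are also induced while the tissue is handled or digested. *Fos* encodes a subunit of the transcription factor AP-1, which pairs with Jun proteins. The *Egr* genes encode zinc-finger factors that bind GC-rich sites, of which *Egr2* and *Egr3* are known for restraining activated T cells. *Dusp6* encodes a cytoplasmic phosphatase selective for ERK, and *Dusp4* a nuclear MAP kinase phosphatase, both of which are induced by the pathway they switch off. *Myc* encodes a growth-promoting factor and is itself a growth factor-induced early gene.

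The stretches just before the transcription start are shown because some of the sites through which this gene class is classically induced lie there. Sites farther than 250 bases before the start were not searched, so a missing match does not mean that the promoter lacks the site. In the RefSeq promoter table (GRCm38.p6), 3 of the 7 genes matched, with 5 start sites for *Egr2*. The 250 bases before the start are printed 5′ to 3′ on the gene's strand, with matches to 6 searched motifs in capitals. The motifs were the CArG box (bound by SRF), TGACGT (the core of the cAMP response element), TGANTCA (AP-1), CCGGAA (ETS factors), GCGNGGGCG (EGR) and CACGTG (E-box), each on both strands.
Fos, chr12:85473640-85473889, plus strand: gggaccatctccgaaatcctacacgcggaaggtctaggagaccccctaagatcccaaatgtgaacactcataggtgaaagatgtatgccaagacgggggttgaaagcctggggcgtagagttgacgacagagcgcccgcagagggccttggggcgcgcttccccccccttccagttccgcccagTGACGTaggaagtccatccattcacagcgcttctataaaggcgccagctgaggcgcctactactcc
Egr2, the third of its start sites, chr10:67537619-67537868, plus strand: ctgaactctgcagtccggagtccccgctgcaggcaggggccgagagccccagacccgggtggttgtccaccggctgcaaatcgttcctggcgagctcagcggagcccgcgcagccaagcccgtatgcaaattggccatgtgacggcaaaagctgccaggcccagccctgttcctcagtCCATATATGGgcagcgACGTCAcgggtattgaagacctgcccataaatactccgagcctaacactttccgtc
Dusp6, chr10:99262981-99263230, plus strand: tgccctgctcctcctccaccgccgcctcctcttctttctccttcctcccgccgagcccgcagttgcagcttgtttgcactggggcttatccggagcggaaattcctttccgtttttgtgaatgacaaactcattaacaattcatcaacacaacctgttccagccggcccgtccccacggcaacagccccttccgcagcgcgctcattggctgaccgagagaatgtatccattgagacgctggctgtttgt
The *Fos* window held TGACGT 66 to 61 bases before the start. The *Egr2* window of the third start site, printed because it held both a CArG box and TGACGT, held a CArG box 72 to 63 bases before the start and TGACGT, read on the minus strand, 56 to 51 bases before it. The windows of the fourth and the fifth start site held the same pair of matches, that of the first held CACGTG alone, and that of the second another CArG box and 3 matches to CCGGAA. No match overlapped another in the printed windows, and the letters of the 6 motifs were not found in the *Dusp6* window. Of all 32851 windows in the table, several per gene for many genes, 1.47% held a CArG box, 6.47% TGACGT, 6.75% TGANTCA, 12.0% CCGGAA, 4.7% GCGNGGGCG and 6.02% CACGTG.

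The deposited values are log2 normalized counts. The total was 526091 to 715706 normalized counts per αChemR23 lung and 580102 to 667587 per hIgG1 lung, and the 20 housekeeping genes averaged 9.01 on the log2 scale in all lungs. Each lung had 1 lowest value of its own, 8.85 to 16.2 normalized counts, shared by 33 to 97 genes, below which levels were not resolved. hIgG1 mouse 8 stood apart in the level of *Rag1*, the recombinase gene of developing lymphocytes, at 8.04 on the log2 scale, against 3.42 to 4.01 in αChemR23 lungs and 3.64 to 3.87 in the other hIgG1 lungs. This lung also had the highest summed level of 14 T cell marker genes, 1786 normalized counts, against 612 to 1148 in αChemR23 lungs and 602 to 969 in the other hIgG1 lungs. Values that change with it in direction, or by more than 1.5 times, are therefore also given without it. In RNA of digested lungs, fewer cells of a type and less RNA per cell cannot be told apart.

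*Fos* was among the genes that varied most between lungs. It had 227, 912, 3497, 953, 1219 and 787 normalized counts in αChemR23 mice 9, 10, 13, 14, 15 and 16, against 753, 1048, 1903, 665 and 295 in hIgG1 mice 3, 4, 6, 7 and 8. The lowest and the highest lung were both αChemR23 lungs (mice 9 and 13), 15.4-fold apart, and the hIgG1 lungs lay between them over a 6.44-fold range. On the log2 scale *Fos* averaged 9.87 ± 1.26 in αChemR23 lungs (SD, n = 6) and 9.61 ± 0.98 in hIgG1 lungs (SD, n = 5), a difference of 0.25 with a standard error of 0.59. The direction turned when αChemR23 mouse 13 (-0.13) or hIgG1 mouse 8 (-0.10) was left out, and the difference was 0.66 without αChemR23 mouse 9. The within-group SD of *Fos*, 1.148, was the third highest of the 657 tested genes, after *Hamp* and *Rag1*, against a median of 0.219 over these genes. Counting error at the level of *Fos* would give an SD of about 0.056.

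*Egr1* followed with the ninth highest within-group SD, 0.734. It had 197, 377, 1146, 590, 434 and 337 normalized counts in αChemR23 mice 9, 10, 13, 14, 15 and 16, against 224, 247, 473, 200 and 178 in hIgG1 mice 3, 4, 6, 7 and 8. As for *Fos*, αChemR23 mouse 13 was the highest lung and hIgG1 mouse 6 the highest of its group. αChemR23 mice 13 and 14 lay above every hIgG1 lung, while αChemR23 mouse 9 lay below 4 of the 5, so that the groups overlapped. *Egr1* averaged 8.78 ± 0.85 in αChemR23 lungs (SD, n = 6) and 7.95 ± 0.55 in hIgG1 lungs (SD, n = 5) on the log2 scale, a difference of 0.83 with a standard error of 0.38. This was the widest difference among the 7 genes and it stayed above 0 whichever mouse was left out, between 0.56 without αChemR23 mouse 13 and 1.07 without αChemR23 mouse 9.

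**Figure D1:**
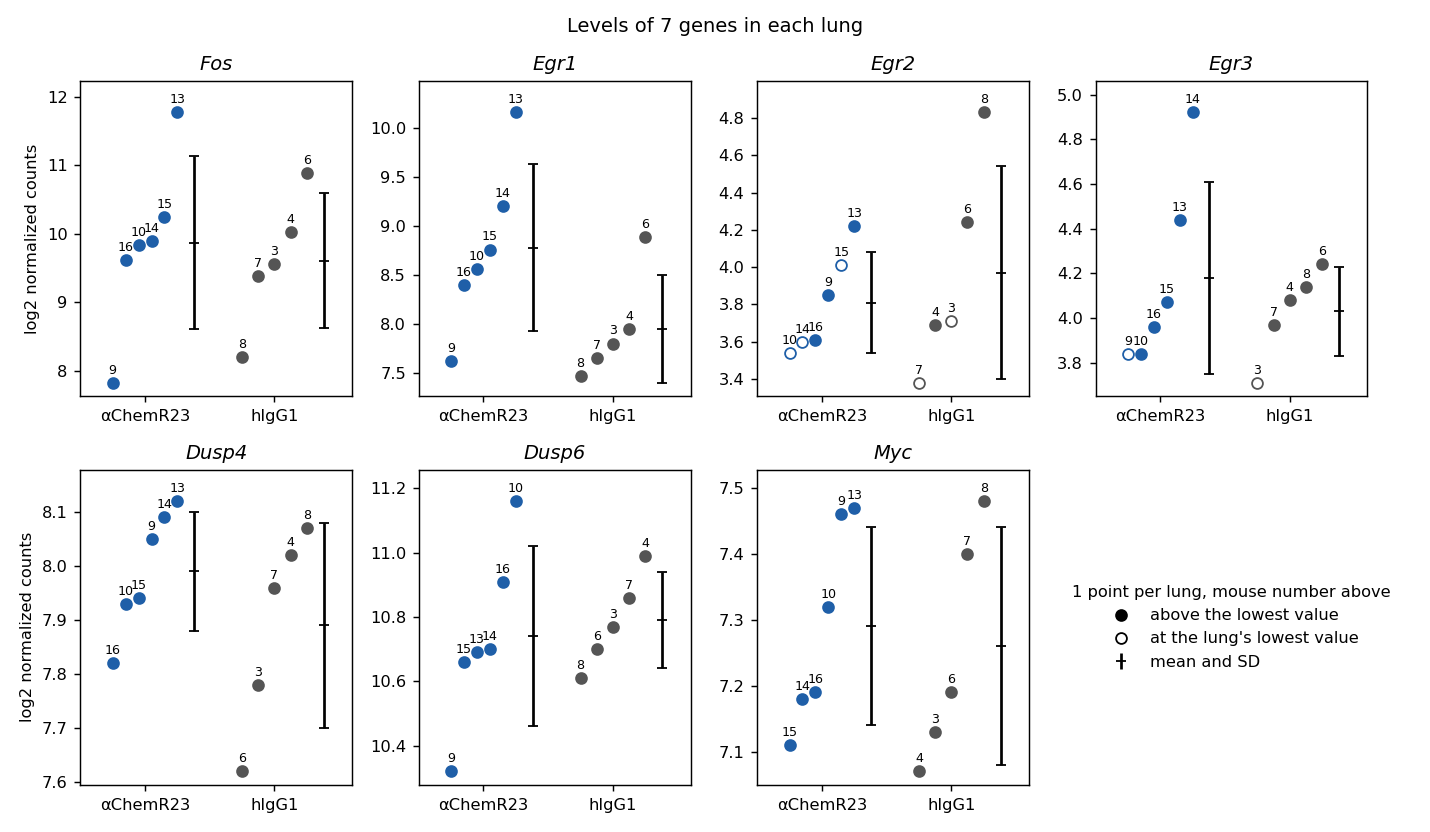
Log2 normalized counts of the 7 genes in αChemR23 (left, n = 6) and hIgG1 lungs (right, n = 5), with 1 point per lung, the mouse number above it, and the mean and SD beside each group. Open points are at the lowest value of that lung. *Fos* and *Egr1* span 3.94 and 2.69 log2 units over the 11 lungs, while *Dusp4*, *Dusp6* and *Myc* span 0.51, 0.83 and 0.41, and each panel has its own axis.

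*Egr2* and *Egr3* were weak. *Egr2* had 14.4, 11.6, 18.6, 12.2, 16.2 and 12.2 normalized counts in αChemR23 mice 9, 10, 13, 14, 15 and 16, against 13.1, 12.9, 18.9, 10.4 and 28.5 in hIgG1 mice 3, 4, 6, 7 and 8. It was at the lowest value of the lung in αChemR23 mice 10, 14 and 15 and in hIgG1 mice 3 and 7, so that only 6 of the 11 lungs had a level above it. The highest value was that of hIgG1 mouse 8, the lung that stood apart in *Rag1*, with a 95% counting interval of 19.1 to 40.9. The log2 difference was -0.17 with a standard error of 0.24, and 0.05 without that mouse.

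*Egr3* had 14.3, 14.3, 21.7, 30.3, 16.8 and 15.5 normalized counts in αChemR23 mice 9, 10, 13, 14, 15 and 16, against 13.1, 16.9, 18.9, 15.7 and 17.7 in hIgG1 mice 3, 4, 6, 7 and 8. αChemR23 mouse 9 and hIgG1 mouse 3 were at the lowest value of their lung. The highest lungs were αChemR23 mice 14 and 13, which were also the highest for *Egr1*, and the counting interval of mouse 14, 21.1 to 42.1, held the value of mouse 13. The log2 difference was 0.15 with a standard error of 0.20. Without αChemR23 mouse 14 it was -0.0002, that is, none was left.

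The phosphatase genes had narrow ranges next to *Fos* and *Egr1*. *Dusp4* lay at 8.05, 7.93, 8.12, 8.09, 7.94 and 7.82 on the log2 scale in αChemR23 mice 9, 10, 13, 14, 15 and 16, against 7.78, 8.02, 7.62, 7.96 and 8.07 in hIgG1 mice 3, 4, 6, 7 and 8, a 1.42-fold range over all lungs. The groups overlapped, with means of 7.99 ± 0.11 in αChemR23 lungs and 7.89 ± 0.19 in hIgG1 lungs (SD, n = 6 and 5), a difference of 0.10 with a standard error of 0.10. *Dusp6* lay at 10.32, 11.16, 10.69, 10.70, 10.66 and 10.91 in αChemR23 mice 9, 10, 13, 14, 15 and 16, against 10.77, 10.99, 10.70, 10.86 and 10.61 in hIgG1 mice 3, 4, 6, 7 and 8. αChemR23 mouse 9, the lowest lung for *Fos*, was also the lowest for *Dusp6*, while αChemR23 mouse 13, the highest for *Fos*, lay in the middle. *Dusp6* averaged 10.74 ± 0.28 in αChemR23 lungs and 10.79 ± 0.15 in hIgG1 lungs (SD, n = 6 and 5), a log2 difference of -0.05 with a standard error of 0.13 that turned to 0.04 without αChemR23 mouse 9 and to 0.004 without hIgG1 mouse 4.

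*Myc* had the narrowest range of the 7 genes, 1.33-fold. It lay at 7.46, 7.32, 7.47, 7.18, 7.11 and 7.19 on the log2 scale in αChemR23 mice 9, 10, 13, 14, 15 and 16, against 7.13, 7.07, 7.19, 7.40 and 7.48 in hIgG1 mice 3, 4, 6, 7 and 8. αChemR23 mice 9 and 13, at opposite ends for *Fos*, had nearly the same *Myc* level. The means were 7.29 ± 0.15 in αChemR23 lungs and 7.26 ± 0.18 in hIgG1 lungs (SD, n = 6 and 5), 0.03 apart with a standard error of 0.11, and the direction turned without αChemR23 mouse 9 or 13 or hIgG1 mouse 4. Without hIgG1 mouse 8 the differences were 0.15 for *Dusp4*, -0.09 for *Dusp6* and 0.09 for *Myc*. The within-group SD was 0.152 for *Dusp4*, 0.229 for *Dusp6* and 0.164 for *Myc*, which placed them 469th, 306th and 440th of the 657 tested genes, with *Dusp6* close to the median of 0.219. For *Myc*, counting error alone would give about 0.115.

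**Figure D2:**
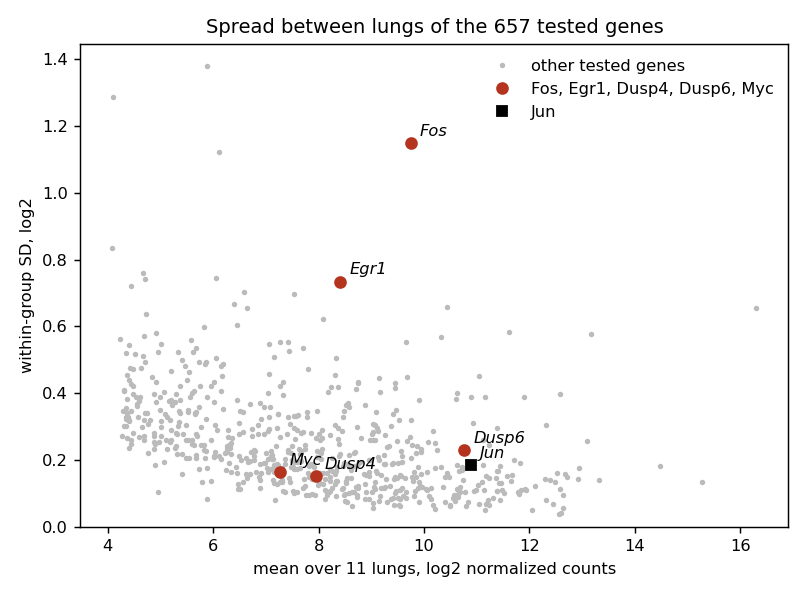
Within-group SD on the log2 scale against the mean log2 normalized counts over 11 lungs, 1 point per tested gene (n = 657). *Fos* (1.148) and *Egr1* (0.734) lie far above most genes of their level, while *Dusp4*, *Dusp6*, *Myc* and the AP-1 gene *Jun* lie among them.

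The mean was higher in αChemR23 lungs for 4 of the 5 tested genes, and for 57.4% of all 657 tested. Past an unadjusted limma p of 0.05 was 1 of the 5, *Egr1*, beside 9.89% of all tested genes (7.15% higher in αChemR23 lungs). After Benjamini-Hochberg adjustment 0 of the 5 passed 0.05, beside 0.0% of all tested genes, with limma adjusted p of 0.483 to 0.941. The exact Mann-Whitney test called 0 of the 657 genes after adjustment. With so few lungs its smallest possible p could pass adjustment only if many genes had separate groups, so this 0 adds no support. The groups overlapped for all 7 genes, and 1.07% of the tested genes had groups that did not overlap. Since the genes were chosen with these values known, nothing is read from the counts.

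*Fos* and *Egr1* varied together. Over the 11 lungs their Pearson r was 0.85 (Spearman's rho 0.89), it was 0.95 within αChemR23 lungs and 0.90 within hIgG1 lungs, and 0.93 for the deviations from the group means. Of the 215496 pairs of tested genes, 0.884% had an r at least as high, and all pairs had a median r of 0.08. The r was 0.82 without hIgG1 mouse 8, 0.74 without αChemR23 mouse 13, and 0.73 without the 2 lungs farthest from the median *Fos* level, αChemR23 mice 9 and 13. Within groups, *Egr1* changed by 0.595 log2 units per log2 unit of *Fos*.

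**Figure D3:**
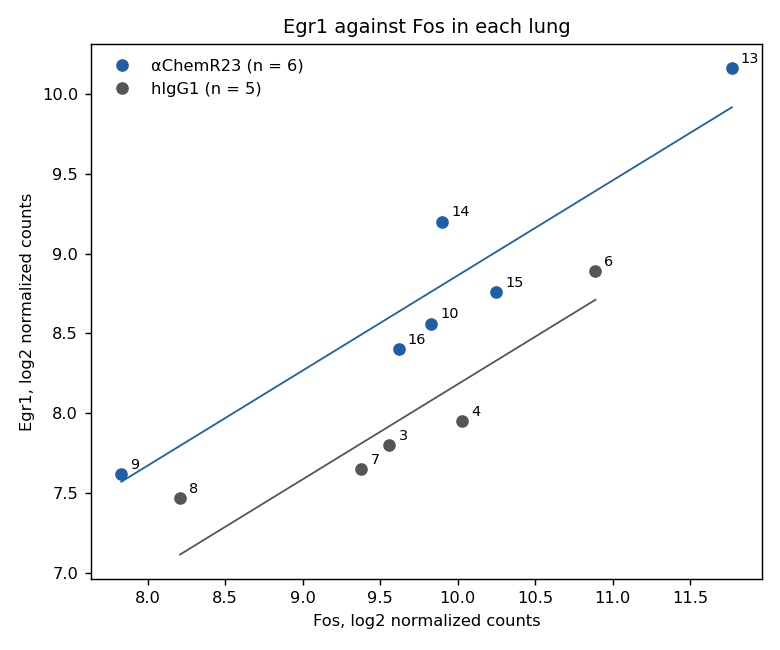
*Egr1* against *Fos* in each lung, both as log2 normalized counts, with the mouse number beside each point, αChemR23 in blue (n = 6) and hIgG1 in gray (n = 5). The lines have the common within-group slope of 0.595 and pass through the means of each group, and the αChemR23 points lie above the hIgG1 points at the same *Fos* level.

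At a given *Fos* level, *Egr1* was higher in αChemR23 lungs. Moved along this slope to the mean *Fos* level, *Egr1* lay at 8.77, 8.51, 8.96, 9.12, 8.47 and 8.47 in αChemR23 mice 9, 10, 13, 14, 15 and 16, against 7.92, 7.78, 8.21, 7.87 and 8.39 in hIgG1 mice 3, 4, 6, 7 and 8. The groups then did not overlap, with 8.72 ± 0.28 in αChemR23 lungs and 8.03 ± 0.26 in hIgG1 lungs (SD, n = 6 and 5), 0.68 apart, and between 0.60 and 0.78 with each mouse left out in turn. The nearest lungs of the groups were αChemR23 mice 15 and 16, at 8.47, and hIgG1 mouse 8, at 8.39. The counting SD of *Egr1* in these lungs was 0.069, 0.083 and 0.107. The gap was narrower than that of hIgG1 mouse 8 alone, so the separation lies within counting error. Treated the same way, 13 of 656 tested genes (1.98%) had groups that did not overlap, 12 of them (1.83%) with αChemR23 above hIgG1. The step removes more of the within-group spread from a gene that follows *Fos* closely, as *Egr1* does, than from most others. This share is therefore not a like comparison for *Egr1*. The plain log2 ratio of *Egr1* to *Fos* averaged -1.08 ± 0.53 in αChemR23 lungs and -1.66 ± 0.54 in hIgG1 lungs (SD, n = 6 and 5), and in it the groups overlapped, with hIgG1 mouse 8 (-0.73) above 4 of the 6 αChemR23 lungs. The comparison at an equal *Fos* level was chosen after the values were seen and has no test.

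The other pairs of the 7 genes did not share this pattern. *Egr1* and *Egr3* came next with an r of 0.64 (rho 0.56), which was between 0.61 and 0.71 with each mouse left out, although *Egr3* was close to the lowest values. *Fos* and *Egr3* had an r of 0.41, and of 0.28 without αChemR23 mouse 13 and 0.62 without αChemR23 mouse 14. *Fos* and *Dusp6* had an r of 0.35, and of -0.06 without αChemR23 mouse 9, and *Egr1* and *Dusp6* had 0.07, between -0.21 and 0.20 with each mouse left out. *Fos* and *Egr2* had an r of -0.03, and of 0.56 without hIgG1 mouse 8, in which *Fos* was the lowest of its group and *Egr2* the highest of all lungs. *Fos* and *Myc* had an r of -0.32, which was -0.79 without αChemR23 mouse 13 and -0.11 without αChemR23 mouse 9. *Dusp4* and *Myc* had an r of 0.47. The middle 95% of all pairs of tested genes, from the 2.5th to the 97.5th percentile, ran from -0.60 to 0.76, which holds every pair but *Fos* and *Egr1*.

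**Figure D4:**
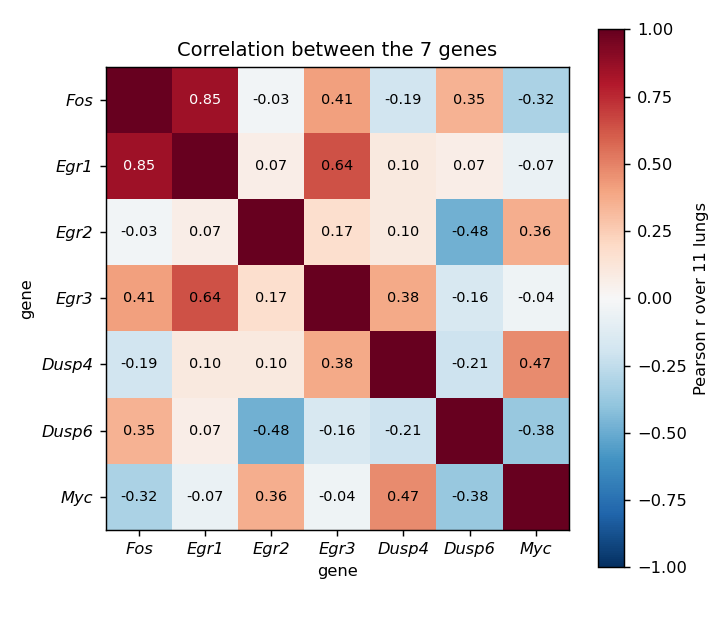
Pearson r over the 11 lungs between each pair of the 7 genes, in color and digits, from -1 (blue) to 1 (red). *Fos* and *Egr1* (0.85) and *Egr1* and *Egr3* (0.64) have the highest values, and *Egr2* and *Dusp6* (-0.48) the lowest.

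The other listed immediate early genes that could be tested were steadier than *Fos*. Of 40 listed, 15 were on the panel, so most of the list could not be compared. The 13 tested had within-group SDs of up to 0.55. Their median within-group SD, 0.33, was above the 0.219 over all tested genes. The mean was above that of hIgG1 lungs in αChemR23 lungs for 5 of the 13 and below it for 8, beside 57.4% of all tested genes above it. The median difference was -0.105, against 0.028 over all tested genes. None of them passed after adjustment. An unadjusted limma p under 0.05 was reached by 1 of the 13, beside 9.89% of all tested genes. This was *Cebpb*, which encodes a factor of myeloid and acute-phase genes, at 9.93 ± 0.28 in αChemR23 lungs and 10.24 ± 0.21 in hIgG1 lungs (limma difference -0.30 with a standard error of 0.14, adjusted p = 0.483). Next by p were *Cd83*, an activation marker of dendritic and B cells (0.20, limma adjusted p = 0.495), *Tnfaip3*, a brake on NF-κB (0.10, limma adjusted p = 0.624), and *Nfkbia*, the NF-κB inhibitor (-0.19, limma adjusted p = 0.693). *Jun*, the partner of *Fos*, spanned only 1.44-fold over the 11 lungs, at 10.90 ± 0.23 in αChemR23 lungs and 10.87 ± 0.11 in hIgG1 lungs (SD, n = 6 and 5). Its r was 0.58 with *Fos* (rho 0.49) and 0.38 with *Egr1*, and αChemR23 mouse 9 was low in both *Jun* and *Fos*.

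Genes of the ERK cascade varied little. Of 34 listed, 13 were on the panel and tested, with a median within-group SD of 0.11. In αChemR23 lungs the mean was higher for 8 of them and lower for 5, beside 57.4% of all tested genes with a higher mean. *Kit*, a receptor tyrosine kinase of mast cells and progenitors, had the smallest p, with 9.27 ± 0.11 in αChemR23 lungs and 9.05 ± 0.07 in hIgG1 lungs (SD, n = 6 and 5, limma difference 0.22 with a standard error of 0.07, adjusted p = 0.301). *Ets1*, an ETS factor that ERK phosphorylates, followed with a limma difference of 0.15, and *Map2k1*, which encodes the kinase MEK1, had 0.09, neither past the unadjusted threshold. These are levels of RNA, and phosphorylation of the kinases was not measured in these lungs.

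The genes outside the 7 whose pattern was most like each of them were taken by the highest Pearson r over the 11 lungs. For *Egr1* these were *Jam3*, a junction adhesion molecule (0.91), *Smn1* (0.87), *Rrad*, a small GTPase of the Rad family (0.72), and *Snai1*, a zinc-finger repressor (0.67). *Jam3* spanned 6.81 to 7.20 in αChemR23 lungs and 6.73 to 6.87 in hIgG1 lungs on the log2 scale, with αChemR23 mouse 13 the highest as for *Egr1*. *Fos* shared *Smn1* (0.74) and *Jam3* (0.72) with *Egr1*, beside *Ccl12*, a monocyte chemokine (0.77), and *Cfd*, complement factor D (0.66). The lowest r with *Fos* were those of *Cd5*, a T cell surface protein (-0.87), and *Dpp4* (-0.83), and with *Egr1* those of *Irf3* (-0.84) and *Tnfsf11* (-0.78). Without αChemR23 mice 9 and 13, *Fos* had 0.30 with *Smn1*, 0.53 with *Jam3* and -0.47 with *Dpp4*. It had 0.88 with *Ccl12*, 0.71 with *Cfd* and -0.93 with *Cd5*. Without αChemR23 mouse 13 and hIgG1 mouse 8, *Egr1* had 0.75 with *Jam3*, 0.68 with *Smn1*, 0.43 with *Rrad* and 0.77 with *Snai1*. It had -0.82 with *Irf3* and -0.56 with *Tnfsf11*. *Egr1* and *Snai1* had 0.46 without αChemR23 mouse 13 alone.

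*Egr2* was closest to *Gfi1*, a repressor of blood cell development (0.85, and 0.75 without hIgG1 mouse 8), *Rag1* (0.76, and 0.10 without that mouse), *Slamf1* (0.74, and 0.46 without that mouse) and *Cd8b1*, a chain of the CD8 coreceptor (0.74, and 0.15 without that mouse). *Egr3* was closest to *Ccl17* and *Mx2* (0.84 each), *Ncr1* (0.68, and 0.29 without αChemR23 mouse 14) and *Ccl22* (0.67). *Ccl17* and *Ccl22* encode the ligands of the chemokine receptor CCR4. For *Dusp4* the closest were *Rora* (0.81), *Hamp* (0.75), *Il12a* and *Ccrl2* (0.69 each), for *Dusp6* *Il10ra* (0.73), *Slc11a1* (0.69), *Il1r2* (0.67) and *Irak4* (0.66), and for *Myc* *Tigit* (0.82), *Ifi44* (0.77), *Cma1* and *Cmpk2* (0.74 each). The lowest r were those of *Ulbp1* (-0.81) and *Flt3* (-0.80) for *Egr2*, *Batf* (-0.87) and *Atg7* (-0.82) for *Egr3*, *Itga5* (-0.67, and -0.33 without hIgG1 mouse 6) and *Klrk1* (-0.64) for *Dusp4*, *Il21r* and *Nup107* (-0.74 each) for *Dusp6*, and *Erbb2* (-0.88) and *Sap130* (-0.65) for *Myc*. With 11 lungs and 657 tested genes, an r of this size is reached by some gene for every one of the 7, including those with a narrow range. Some of these genes were near the lowest values. *Egr2* was above the lowest value of the lung in only 6 of the 11 lungs. *Gfi1* and *Tigit* averaged 20.4 and 20.1 normalized counts. With the log2 lowest value of the lung, *Egr2* had an r of 0.46 (rho 0.65), *Egr3* of -0.03 and *Myc* of -0.16. With the estimated total of raw counts per lung, *Egr2* had -0.58 (rho -0.62), *Egr3* -0.57 (rho -0.68) and *Myc* 0.02. With the median log2 level of all genes in the lung, *Egr2* had -0.13, *Egr3* -0.41 (rho -0.32) and *Myc* 0.53 (rho 0.66). The part of the lowest values, the raw total and the median level in the correlations between genes was not tested.

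*Fos* was low in lungs where T cell marker genes were high. All 14 T cell markers of the list, among them *Cd3e*, *Cd4* and *Cd8a*, had a negative r with *Fos*, with a median of -0.63, against a negative r for 59.4% of the 652 tested genes outside the 7 and a median of -0.08. With the mean log2 level of the 14 markers, *Fos* had an r of -0.70 (rho -0.80) and *Egr1* of -0.59 (rho -0.64). Without hIgG1 mouse 8, the r was -0.61 for *Fos* and -0.51 for *Egr1*, and 13 of the 14 markers had a negative r with *Fos*, beside 68.3% of the 652 genes. *Cd5* had an r of -0.87 with *Fos* with and without that mouse. The inverse relation was not limited to T cell markers. *Fos* had an r of -0.58 (rho -0.64, and -0.61 without that mouse) with the endothelial markers, 8 of 9 of them negative. It had -0.42 (rho -0.45) with the NK cell markers, 6 of 7 negative, and -0.30 (rho -0.18) with the B cell markers, 7 of 7 negative. Leaving out the 2 lungs farthest from the median marker level changed some of these values. The r was then -0.22 for the NK cell markers and 0.19 for the B cell markers (both without αChemR23 mice 9 and 14). It was -0.42 for the endothelial markers (without αChemR23 mice 9 and 10) and -0.69 for the T cell markers (without αChemR23 mouse 16 and hIgG1 mouse 8). With the median log2 level of all genes in the lung, the r was -0.32 (rho -0.59) for *Fos* and -0.34 (rho -0.53) for *Egr1*. No T cell marker was at the lowest value in every lung, but some were near the lowest values, which were 3.15 to 4.01 on the log2 scale. *Cd8b1* averaged 4.35 in αChemR23 lungs and 4.55 in hIgG1 lungs, and *Cd6* 4.43 and 4.95. The part of these cell types in the level of *Fos* was not tested.

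**Figure D5:**
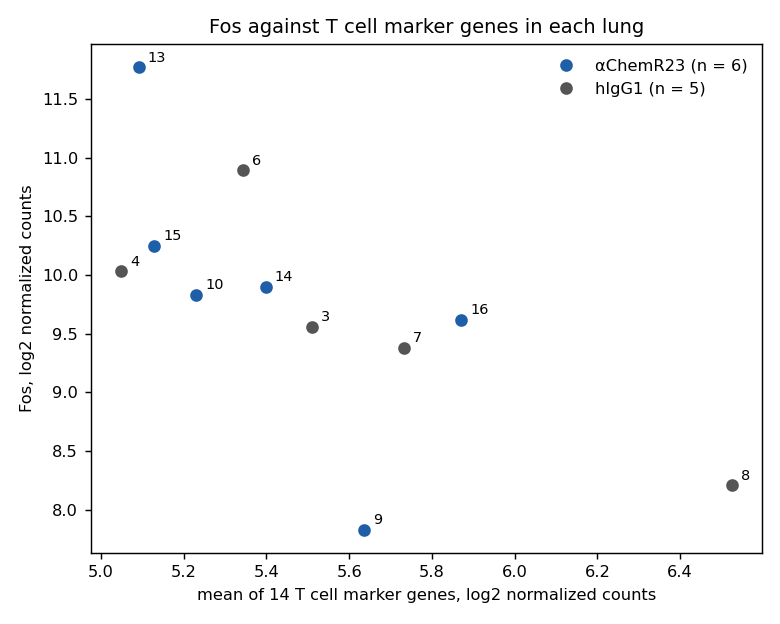
*Fos* against the mean of the 14 T cell marker genes in each lung, both as log2 normalized counts, with the mouse number beside each point, αChemR23 in blue (n = 6) and hIgG1 in gray (n = 5). *Fos* is low in hIgG1 mouse 8, which has the highest marker level (6.53). αChemR23 mouse 9, the lowest in *Fos*, has a marker level of 5.64.

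Markers of other cell types moved with some of the genes. The 12 tested neutrophil markers summed to 40872 to 177647 normalized counts in αChemR23 lungs and 83161 to 139454 in hIgG1 lungs, and their mean log2 level had an r of -0.02 with *Fos* (-0.10 without hIgG1 mouse 8), 0.55 with *Dusp6* (rho 0.67) and -0.78 with *Egr3* (rho -0.62, and -0.39 without αChemR23 mice 10 and 14). *Dusp6* also had an r of -0.68 with the B cell markers (rho -0.48, and -0.41 without αChemR23 mice 9 and 14). *Myc* had an r of 0.62 with the endothelial markers (rho 0.68). The macrophage and monocyte markers had an r of 0.18 with *Fos* and 0.02 with *Egr1*, which turned to -0.19 and -0.33 without hIgG1 mouse 8. No gene of these lists was at the lowest value in every lung, though single lungs may be at it. The part of these cell types in the levels of the 7 genes was not tested.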

How the data were processed

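RNA of 11 lungs (50 ng each) was counted on the nCounter Sprint. The authors used nSolver to normalize the counts and deposited them on the log2 scale for 770 genes, relative to the housekeeping genes. The sources used here do not give the nSolver settings. The base of the logarithm was read from the low values: under 60 normalized counts, 100% were whole multiples of 1 step per lung (0.865 to 1.11) within 0.1 of a count, for an estimated 590856 to 680666 raw counts per lung. Counts at the lowest value of a lung cannot be recovered, so the DESeq2 model that the authors name was not run. No column belonged to another series (0).

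Groups were compared by limma 3.58.1 (R 4.3.3, lmFit and eBayes with a mean-variance trend) on the 657 genes that averaged 20 or more normalized counts, αChemR23 minus hIgG1, with Benjamini-Hochberg adjustment and a threshold of 0.05. *Egr2* and *Egr3* took their differences from a fit without this filter. The fit was tested on simulated data. Counting intervals (95%, exact Poisson) and counting SDs cover counting error only. Correlations were computed over lungs in Python 3.11.15 with pandas 2.3.3, and within-group SDs pool both groups.

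The 7 genes and the gene lists were chosen with earlier results of these data known. The genes named were the 7, the 4 tested genes with the highest and the 2 with the lowest r for each, up to 4 genes per list with the smallest p, and defining markers. The result of 1 gene that this rule names is not reported here. All 7 symbols matched the RefSeq gene table. The alternatives tried were leaving out each mouse, Spearman correlation, a minimum mean of 50 or no filter, log2(value + 10), equal medians, quantile normalization, housekeeping scaling, exact Mann-Whitney tests, robust eBayes and array weights.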

Additional observations from a re-analysis of the deposited data

Results flagged for a closer look

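For the 7 genes and the genes with the highest and lowest r to them (47 genes, 94 groups of values), a lung far from the others of its group was looked for as a gap that is large against the range of the group. Chance gives about 1 such gap in 20 groups, and 3 were found. All 3 were in hIgG1 mouse 8: *Rag1* at 8.04 on the log2 scale, against 3.64 to 3.87 in the other hIgG1 lungs, *Cd8b1* at 6.38, against 3.64 to 4.40, and *Dpp4* at 9.89, against 9.75 to 9.79. None of the 7 genes had such a gap in either group. The widest was that of *Egr1* in hIgG1 lungs, where mouse 6 lay apart by 0.664 of the range, with a limit of 0.71.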

How the results depend on the processing

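No paired analysis was possible because no mouse number occurs in both groups. Among 96 values under alternatives other than leaving out a mouse, no group difference of the 7 genes turned direction or passed the adjusted threshold. Whether *Egr1* stayed past the unadjusted threshold was not checked. Its difference was 0.76 (standard error 0.42) with array weights and 0.85 (standard error 0.41) with quantile normalization. That of *Fos* was 0.12 with array weights in place of 0.25. By over 1.5 times, 3 counts moved. Quantile normalization gave 1 gene past the adjusted threshold in place of 0, and the exact Mann-Whitney test 41 past the unadjusted threshold in place of 65. A minimum mean of 50 left 3 of 9 other immediate early genes with a higher mean, in place of 5 of 13. Quantile normalization also turned the split of genes past the unadjusted threshold to 26 higher and 32 lower, against 47 and 18 as deposited. The median correlation over the 5 tested genes, -0.002 as deposited (-0.13 within groups), was 0.20 (0.13 within groups) with it and 0.19 (0.12 within groups) with equal medians. The cause was not tested. Setting 1 common lowest value and all settings of the *Fos* and *Egr1* correlation were chosen after seeing the data. With each mouse left out, the adjusted count ran from 0 to 3 (3 without αChemR23 mouse 10), the unadjusted count from 39 (without αChemR23 mouse 9) to 80, and the log2 difference from -0.13 to 0.66 for *Fos*, 0.56 to 1.07 for *Egr1*, -0.31 to 0.05 for *Egr2*, -0.0002 to 0.22 for *Egr3*, 0.03 to 0.15 for *Dusp4*, -0.13 to 0.04 for *Dusp6* and -0.02 to 0.09 for *Myc*. The *Fos* and *Egr1* correlation ran from 0.74 to 0.88 (0.89 to 0.95 within groups), the median correlation from -0.22 to 0.08 (-0.27 to 0.14 within groups), the other immediate early genes with a higher mean from 4 to 6, and the ERK cascade genes from 7 to 9. Depth limits *Egr2* and *Egr3*, which lie at or near the lowest values.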

Other observations

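Further lists bordered on the 7 genes. Of 9 tested stress kinase genes, 6 had a higher mean in αChemR23 lungs, beside 57.4% of all tested genes. In limma 0 passed after adjustment and 2 had an unadjusted p under 0.05, beside 9.89% of all tested genes. These were *Mapk11*, which encodes a p38 kinase, at 6.11 ± 0.26 in αChemR23 lungs and 6.46 ± 0.18 in hIgG1 lungs, and *Map3k1*, a kinase upstream of JNK, at 8.54 ± 0.13 in αChemR23 lungs and 8.37 ± 0.10 in hIgG1 lungs (SD, n = 6 and 5, limma adjusted p = 0.483 each). The 4 tested NFAT genes, whose factors induce *Egr2* and *Egr3* in T cells, were higher for 2 and lower for 2, none past the unadjusted threshold, and so were the 2 tested proliferation genes, 1 in each direction. Of 12 listed heat shock genes, 0 are on the panel.

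Among the cell type lists, 0 genes passed after adjustment. All 14 tested T cell markers had a lower mean in αChemR23 lungs, none past the unadjusted threshold. Without hIgG1 mouse 8 only 6 of the 14 did, and the mean log2 level of the list was 5.39 in αChemR23 lungs, against 5.63 in all hIgG1 lungs and 5.41 in the other 4. All 7 tested B cell markers had a higher mean, 4 of them past it (beside 7.15% of all tested genes), with a median log2 difference of 0.516. A higher mean was found for 4 of 12 neutrophil, 7 of 13 macrophage and monocyte, 6 of 7 NK cell, 8 of 9 endothelial, 4 of 4 epithelial and carcinoma, 5 of 6 fibroblast and 0 of 3 platelet markers, beside 57.4% of all tested genes. Without hIgG1 mouse 8, chosen after seeing the data, these were 1 of 12, 6 of 13, 5 of 7, 7 of 9, 4 of 4, 6 of 6 and 0 of 3, and still 7 of 7 for the B cell markers.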
